A study of Arabidopsis thaliana with 20 samples.

Results

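Pre-mRNA splicing is carried out by the spliceosome, which is built on each intron from small nuclear ribonucleoproteins (snRNPs) and then rearranged by helicases and by the Prp19 complex. The U1 snRNP marks the 5′ splice site, SF1 and the U2AF heterodimer mark the branch point and the 3′ splice site, and the U4/U6.U5 tri-snRNP then joins to form the catalytic machine. Much of this work happens while the transcript is still attached to chromatin, and several plant splicing factor genes are themselves alternatively spliced. The genes described here are 31 named by identifier, of 33602 in the chromatin-bound RNA tables: U1, U2AF, Sm and LSm, U5, Prp19 complex, cap-binding and PTB genes with SR45 and SR45a. All 31 were found in the chromatin-bound tables and in the mRNA table, and all 31 passed the filter on low values, a mean of at least 1 FPKM (fragments scaled to gene length and to the library total). The identifiers, and no threshold on a value, define the set, and they were chosen with earlier results of these data known.

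RNA came from whole Arabidopsis thaliana seedlings, rz-1b rz-1c double mutants and wild-type Col-0, grown for 10 days at 22 °C with 16 h of light and 8 h of dark. The mutated genes encode RNA-binding proteins with a zinc finger and a glycine-rich stretch. Chromatin-bound RNA, which stays with washed chromatin and is rich in unfinished transcripts, was depleted of rRNA and of polyadenylated RNA before strand-specific sequencing. It was sequenced from 4 libraries per genotype under 2 replicate numbers, and the deposited tables hold 1 FPKM column per number, so n = 2 per genotype. mRNA came from 3 libraries per genotype and stands in the authors' deposited table as 1 value per genotype with a q value. The labels give neither the insertion alleles nor whether the mutant is 1 line, nor do they say that the replicates were grown apart. The p-values therefore cover only the variation among these columns, which may be technical. The 6 iCLIP libraries of the study were not analysed here.

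RZ-1C (AT5G04280) had chromatin-bound levels of 4.59 and 4.27 FPKM in the mutant and 16.7 and 13.1 FPKM in Col-0 (log2 change -1.54, SE 0.21, limma adjusted p = 0.00523, rescaled log2 change -1.79). RZ-1B (AT1G60650) had 132 and 143 FPKM in the mutant, against 10.5 and 9.42 FPKM in Col-0, although the authors' deposited table puts its mRNA at 2.299 FPKM in the mutant and 15.2 FPKM in Col-0 (q = 0.000329). RZ-1A (AT3G26420), their relative, did not pass in chromatin-bound RNA (limma adjusted p = 0.297). Total counts are unknown. A relative depth read from ratios of low FPKM values was 2.80 and 2.98 for the mutant columns and 1.51 and 1 for the Col-0 columns, an uncertain estimate since at most 6.07% of low genes shared a ratio. Nuclear rRNA took 31.6% and 34.1% of the FPKM total in the mutant and 53.6% and 60.5% in Col-0, and the median of all genes tested had a log2 change of 0.27. Log2 changes are as deposited unless called rescaled, which means after median-of-ratios scaling, where that median is 0.02. The 4 green-tissue markers summed to 2192 and 2323 FPKM in the mutant and 2509 and 1824 FPKM in Col-0, with all 4 above 0 in each column. RBCS1A and CAB1 carry most of that sum and did not pass, while LHCB2.1 (log2 change 0.98, limma adjusted p = 0.0365) and LHCB3 (log2 change 0.90, limma adjusted p = 0.0367) were called higher in the mutant. The 3 root markers summed to 27.2 and 37.5 FPKM in the mutant and 6.16 and 5.74 FPKM in Col-0, where IRT1 and FRO2 were listed at 0 in replicate 2. IRT1 and FRO2, which serve iron uptake, were higher in the mutant, whereas PRP3 was called lower, at 2.68 and 2.57 FPKM in the mutant and 5.77 and 5.74 FPKM in Col-0 (log2 change -0.90, limma adjusted p = 0.0326). In the authors' deposited table the root markers' mRNA summed to 32.1 FPKM in the mutant and 91.4 FPKM in Col-0, mostly PRP3 (27.7 and 81.1 FPKM). FRO2 went the other way, at 1.93 FPKM in the mutant and 1.57 FPKM in Col-0 (q = 0.423). Green-tissue mRNA there summed to 32687 FPKM in the mutant and 41623 FPKM in Col-0, with RBCS1A higher in the mutant and the others lower. Seed storage mRNA summed to 580 FPKM in the mutant and 9.99 FPKM in Col-0, with all 4 markers higher in the mutant. In chromatin-bound RNA the 4 seed storage markers, summed, were at 67.2 and 92.8 FPKM in the mutant and at 3.95 and 0.298 FPKM in Col-0, with 3 of the 4 listed at 0 in Col-0 replicate 2. In whole seedlings, fewer cells of a type and less RNA per cell cannot be told apart, and the part of these differences in the results below was not tested.

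Across the 31 genes, 5 rose in chromatin-bound RNA of the mutant, 0 fell and 26 did not pass, by limma on log2(FPKM + 1) with an adjusted p under 0.05 over all 19694 genes tested. The 5 were STA1, SR45a, U1-70K, U2AF65A and SF1. An unadjusted limma p under 0.05 was found for 14 of the 31, and the share of all genes under it was not computed. These 5 are 16.1% of the set, beside 13.2% of all genes tested that rose and 4.24% that fell. A share this near the background says little about the set as a whole. The median log2 change of the 31 was 0.32 and that of all genes tested 0.27. After median-of-ratios scaling 3 of the 31 were higher (9.68%) and 1 was lower (3.23%), beside 6.68% and 7.77% of all genes tested. The 3 were STA1, SR45a and U1-70K, and the 1 was LSM5. After quantile normalization the same 4 genes were called, beside 7.34% of all genes higher and 7.82% lower. Both mutant replicates were above both Col-0 replicates for 19 of the 31 (61.3%), beside 49.5% of all genes tested, and below them for 1 (3.23%), LSM5, beside 15.7%. No gene of the 5 still passed once a mutant replicate, 1 or 2, was removed. With 1 mutant column left, far fewer of all genes passed as well. The log2 changes of the 5 then ran from 0.64 (U2AF65A) to 1.16 (SR45a) without mutant replicate 1. Without mutant replicate 2 they ran from 0.91 (SF1) to 1.40 (STA1).

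**Figure D1:**
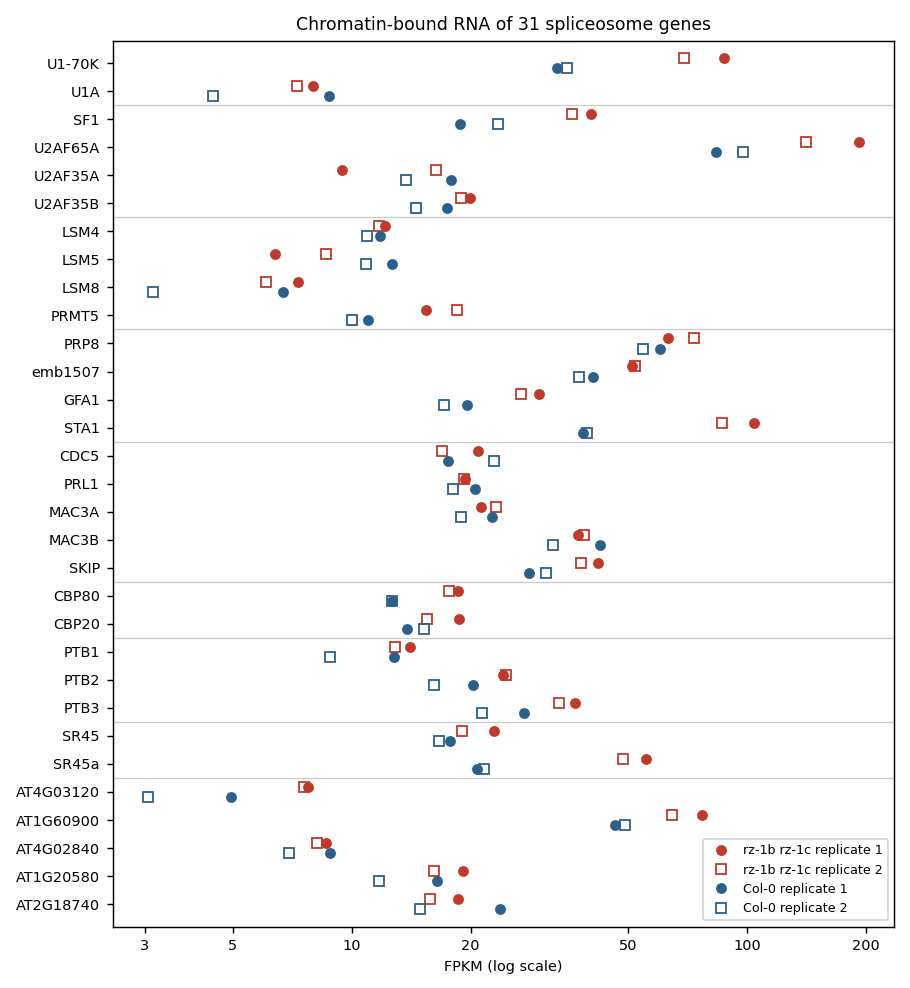
Chromatin-bound level of each of the 31 genes in FPKM on a log scale, 1 point per replicate column, with the rz-1b rz-1c mutant drawn above Col-0 in each row and grey lines between functional groups. STA1, SR45a and U1-70K show mutant pairs well to the right of tight Col-0 pairs, and LSM5 is the 1 gene whose mutant pair lies wholly to the left.

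The U1 snRNP recognises the 5′ splice site, and of its 2 named protein genes U1-70K passed and U1A did not. The difference between them was not tested. U1-70K (AT3G50670), the protein that binds the first stem-loop of U1 snRNA and contacts SR proteins, was at 87.7 and 69.3 FPKM in the mutant and 33.1 and 35.01 FPKM in Col-0. The mutant replicates stood well above the Col-0 replicates, which were nearly equal, and the rise was 2.31-fold (log2 change 1.17, SE 0.18, n = 2 per genotype, limma adjusted p = 0.00817). After rescaling the log2 change was 0.89 (limma adjusted p = 0.0203). U1A (AT2G47580), which binds another stem-loop of U1 snRNA, was at 7.98 and 7.29 FPKM in the mutant and 8.77 and 4.47 FPKM in Col-0. Its groups overlapped and the Col-0 replicates differed 1.96-fold, so the 95% interval of its log2 change ran from -0.45 to 0.93, with a rescaled change of -0.0057. In mRNA neither passed: the authors' deposited table has U1-70K at 62.3 FPKM in the mutant and 51.9 FPKM in Col-0 (q = 0.153), and U1A at 37.2 FPKM in the mutant and 40.5 FPKM in Col-0 (q = 0.586).

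Among the factors that read the branch point and 3′ splice site, SF1 and U2AF65A rose and the U2AF35 genes did not pass. AT1G60900, which is set with U2AF65A in the shares below, did not pass either (log2 change 0.55, limma adjusted p = 0.0656). The differences between these genes were not tested. SF1 (AT5G51300), the branch point binding protein, was at 40.3 and 36.0 FPKM in the mutant and 18.8 and 23.5 FPKM in Col-0, 1.81-fold higher (SE 0.19 on a log2 change of 0.83, limma adjusted p = 0.0264). U2AF65A (AT4G36690), the large U2AF subunit that binds the polypyrimidine tract, had the highest level of the 31 in every chromatin-bound column. Its values were 192 and 141 FPKM in the mutant and 83.8 and 97.5 FPKM in Col-0, 1.84-fold higher (SE 0.21 on a log2 change of 0.86, limma adjusted p = 0.0324). Neither replicate pair overlapped, but both calls were lost after median-of-ratios scaling, with log2 changes of 0.56 for SF1 and 0.58 for U2AF65A (limma adjusted p = 0.110 and 0.111), and without the filter on low values. U2AF65A also did not pass without Col-0 replicate 1 (limma adjusted p = 0.0687) or without the intensity trend (limma adjusted p = 0.0533). U2AF35A (AT1G27650), a small subunit that reads the AG of the 3′ splice site, was at 9.46 and 16.3 FPKM in the mutant and 17.9 and 13.7 FPKM in Col-0. Its mutant replicates differed 1.72-fold and straddled a Col-0 value, and the interval of its log2 change ran from -0.96 to 0.34 around -0.31, with a rescaled change of -0.57. U2AF35B (AT5G42820) was at 19.9 and 18.9 FPKM in the mutant and 17.4 and 14.5 FPKM in Col-0 (log2 change 0.27, SE 0.18, limma adjusted p = 0.314, rescaled log2 change 0.0037).

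The LSm ring binds the end of U6 snRNA in the nucleus. LSM5 (AT5G48870), also known as SAD1 from its abscisic acid and drought phenotype, was at 6.40 and 8.64 FPKM in the mutant and 12.7 and 10.9 FPKM in Col-0. Both mutant values lay under both Col-0 values, and the log2 change was -0.59 as deposited (SE 0.21, limma adjusted p = 0.0970) and -0.85 (limma adjusted p = 0.0422) after rescaling. LSM4 (AT5G27720) was at 12.1 and 11.7 FPKM in the mutant and 11.8 and 10.9 FPKM in Col-0. Those pairs nearly coincide, with an interval of -0.36 to 0.49 on the log2 scale and a rescaled change of -0.20. LSM8 (AT1G65700), the subunit that marks the nuclear form of the ring, was at 7.32 and 6.06 FPKM in the mutant and 6.70 and 3.15 FPKM in Col-0, so that its Col-0 replicates differed 2.13-fold (log2 change 0.44, SE 0.32, rescaled 0.20). PRMT5 (AT4G31120), the methyltransferase that dimethylates arginines of Sm proteins, was at 15.5 and 18.5 FPKM in the mutant and 10.99 and 10.02 FPKM in Col-0. Its groups did not overlap, and it missed the threshold (log2 change 0.64, SE 0.19, limma adjusted p = 0.0567, rescaled log2 change 0.38).

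Genes of the U5 snRNP and tri-snRNP all had positive log2 changes as deposited, and 1 of 4 passed. Positive changes were also found in 27 of the 31, where the median of all genes tested was itself 0.27, and in 18 after rescaling. By sign as deposited, 39.3% of 18512 genes were higher in both chromatin-bound RNA and mRNA. A further 31.3% were higher in chromatin-bound RNA and lower in mRNA. After rescaling 3 of the 4 U5 and tri-snRNP genes had positive changes. STA1 (AT4G03430), the Prp6-type protein that bridges U5 with U4/U6 and is known for cold-sensitive splicing defects, was at 104 and 86.3 FPKM in the mutant and 38.4 and 39.5 FPKM in Col-0. The Col-0 replicates agree closely and lie far below the mutant ones, and the 2.45-fold rise (log2 change 1.26, SE 0.17, limma adjusted p = 0.00556) was close in size to that of SR45a. After rescaling it was 0.98 (limma adjusted p = 0.0128). GFA1 (AT1G06220), the U5 GTPase of the Snu114 type, was at 29.8 and 26.8 FPKM in the mutant and 19.5 and 17.1 FPKM in Col-0 (log2 change 0.60, SE 0.18, limma adjusted p = 0.0559, rescaled log2 change 0.33). PRP8 (AT1G80070), the protein at the catalytic centre, was at 63.2 and 73.5 FPKM in the mutant and 60.3 and 54.7 FPKM in Col-0. emb1507 (AT1G20960), the Brr2-type helicase that unwinds U4/U6, was at 51.1 and 52.2 FPKM in the mutant and 40.7 and 37.7 FPKM in Col-0. For PRP8 and emb1507 the groups did not overlap, but the log2 changes of 0.24 and 0.39 (SE 0.17 and 0.16) did not pass, and after rescaling they were -0.04 and 0.11.

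The Prp19 complex activates the catalytic spliceosome, and 4 of its 5 genes here had log2 changes near 0. CDC5, PRL1, MAC3A and MAC3B had log2 changes of -0.09, 0.00, 0.10 and 0.04, each with overlapping groups, and their 95% intervals together ran from -0.58 to 0.52. After rescaling all 4 were negative, at -0.36, -0.27, -0.17 and -0.24 in that order, and none passed. PRL1 (AT4G15900), a WD40-repeat protein, was at 19.4 and 19.2 FPKM in the mutant and 20.5 and 18.1 FPKM in Col-0. MAC3A (AT1G04510), a U-box ubiquitin ligase of the Prp19 type, was at 21.2 and 23.2 FPKM in the mutant and 22.6 and 18.9 FPKM in Col-0. MAC3B (AT2G33340), of the same type, was at 37.3 and 38.8 FPKM in the mutant and 42.4 and 32.4 FPKM in Col-0. In all 3 the mutant and Col-0 ranges overlapped. CDC5 (AT1G09770), a Myb-domain core subunit, was at 20.9 and 17.0 FPKM in the mutant and 17.5 and 23.0 FPKM in Col-0. SKIP (AT1G77180), which links splicing to clock genes, was at 42.1 and 38.0 FPKM in the mutant and 28.2 and 31.1 FPKM in Col-0, without overlap and without passing (log2 change 0.42, SE 0.17, limma adjusted p = 0.121, rescaled log2 change 0.15).

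The cap-binding complex joins the 5′ cap of nascent RNA. CBP80 (AT2G13540), its large subunit, was at 18.6 and 17.6 FPKM in the mutant and 12.69 and 12.68 FPKM in Col-0, and CBP20 (AT5G44200), its cap-contacting subunit, was at 18.8 and 15.5 FPKM in the mutant and 13.8 and 15.3 FPKM in Col-0. Neither passed, although the groups did not overlap in either gene (limma adjusted p = 0.0938 and 0.433). After rescaling their log2 changes were 0.21 for CBP80 and -0.05 for CBP20. The PTB genes encode polypyrimidine tract-binding regulators of exon choice. All 3 had mutant replicates above Col-0 replicates without passing, with log2 changes of 0.31 for PTB1 (AT3G01150), 0.41 for PTB2 (AT5G53180) and 0.52 for PTB3 (AT1G43190), and of 0.05, 0.14 and 0.25 after rescaling. As 49.5% of all genes tested were separated in that direction, the separation says little about the cap-binding and PTB genes. PTB3 was the most abundant of them, at 36.8 and 33.4 FPKM in the mutant and 27.2 and 21.3 FPKM in Col-0. PTB1 was the least abundant, at 14.1 and 12.9 FPKM in the mutant and 12.8 and 8.80 FPKM in Col-0.

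SR45 and SR45a are splicing activators with arginine and serine-rich domains on both sides of an RNA recognition motif, and SR45a passed while SR45 did not. The difference between them was not tested. SR45a (AT1G07350), known for stress-dependent alternative splicing of its own transcript, was at 55.5 and 48.5 FPKM in the mutant and 20.8 and 21.6 FPKM in Col-0. The pairs are tight and far apart, with a rise of 2.45-fold as deposited (log2 change 1.25, SE 0.17, limma adjusted p = 0.00523) and a log2 change of 0.98 (limma adjusted p = 0.0123) after rescaling. SR45 (AT1G16610), related to the exon junction protein RNPS1, was at 22.9 and 19.0 FPKM in the mutant and 17.7 and 16.6 FPKM in Col-0 (log2 change 0.27, SE 0.18, limma adjusted p = 0.322), and its rescaled change was -0.00. By locus order in RefSeq (TAIR10.1) the next gene to SR45a is MAC5A (AT1G07360), a subunit associated with the Prp19 complex, which also rose (limma adjusted p = 0.0275, and 0.0487 after rescaling). Whether reads of one of these neighbours entered the other's value was not tested.

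**Figure D2:**
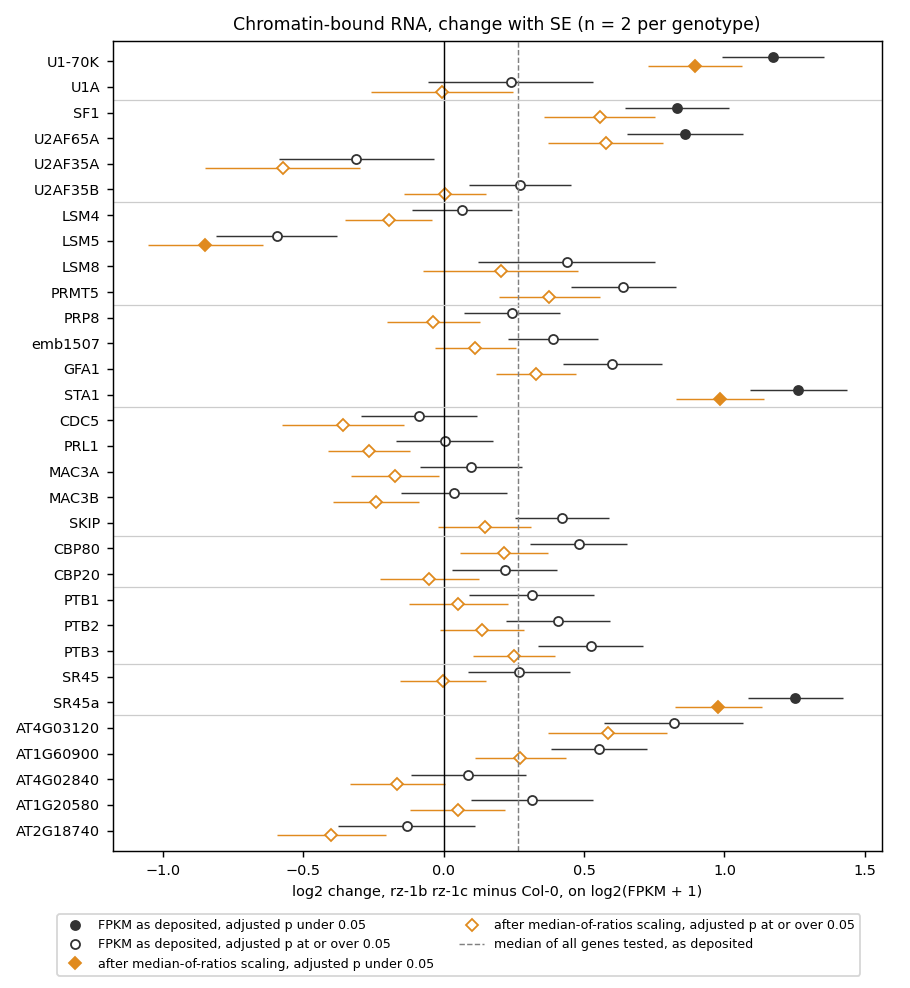
Log2 change in chromatin-bound RNA, rz-1b rz-1c minus Col-0, with its SE (n = 2 per genotype), as deposited (circles) and after median-of-ratios scaling (diamonds), filled where the limma adjusted p was under 0.05, and the median of all genes tested as a dashed line. STA1, SR45a and U1-70K are filled under both scalings, SF1 and U2AF65A as deposited, and LSM5 after rescaling.

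For 5 of the 31 identifiers the RefSeq gene table gives no name, and they are described by identifier. AT4G03120 was at 7.77 and 7.57 FPKM in the mutant and 4.95 and 3.06 FPKM in Col-0, without overlap (log2 change 0.82, SE 0.25, limma adjusted p = 0.0619, rescaled log2 change 0.58). AT1G60900 was at 77.0 and 64.8 FPKM in the mutant and 46.4 and 49.3 FPKM in Col-0, also without overlap (log2 change 0.55, SE 0.17, limma adjusted p = 0.0656, rescaled log2 change 0.27). Neither passed, and both were close to the threshold. AT4G02840, AT1G20580 and AT2G18740 had overlapping groups, with log2 changes of 0.09, 0.32 and -0.13, and rescaled ones of -0.16, 0.05 and -0.40.

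In mRNA the authors' q was under 0.05 for 4 of the 31, with SF1, STA1 and LSM8 higher in the mutant and MAC3B lower. The 3 higher are 9.68% of the set and the 1 lower is 3.23%, beside 16.9% and 17.7% of the 20851 genes with a q under 1, so both shares were under the background. The authors' deposited table has STA1 at 29.6 FPKM in the mutant and 20.6 FPKM in Col-0, a ratio of 1.44 (q = 0.000894). It has SF1 at 34.7 FPKM in the mutant and 25.3 FPKM in Col-0, a ratio of 1.38 (q = 0.00562). In that table LSM8 was at 30.4 FPKM in the mutant and 22.0 FPKM in Col-0, a ratio of 1.38 (q = 0.0418). STA1 and SF1 were thus the 2 genes of the 31 called higher in both kinds of RNA. After rescaling SF1 was not called in chromatin-bound RNA (limma adjusted p = 0.110). The share of all genes called higher in both was not computed. MAC3B was at 52.6 FPKM in the mutant and 72.9 FPKM in Col-0 in the authors' deposited table, a ratio of 0.722 (q = 0.00465), while its partner MAC3A was at 34.4 FPKM in the mutant and 31.3 FPKM in Col-0 (q = 0.496). No change among the 31 reached 1.5-fold in mRNA, and their log2 ratios ran from -0.47 to 0.53 around a median of 0.08, where all genes with at least 1 FPKM had a median of -0.01.

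**Figure D3:**
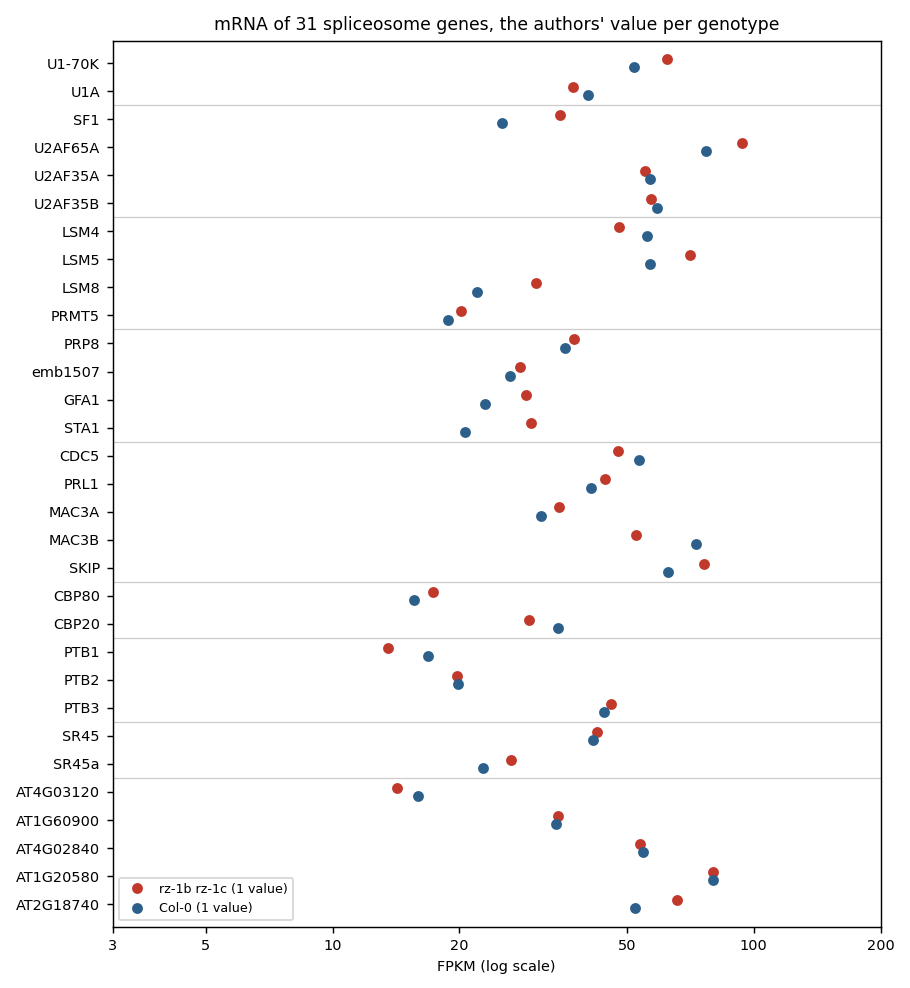
mRNA level of each of the 31 genes in FPKM on a log scale, the authors' 1 value per genotype, with the rz-1b rz-1c mutant drawn above Col-0. STA1, SF1 and LSM8 lie to the right in the mutant and MAC3B to the left, and the remaining 27 genes did not pass the authors' q.

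The other genes that rose in chromatin-bound RNA had mRNA ratios below those of STA1 and SF1. In STA1 and SF1 too, the mRNA ratio (1.44 and 1.38) was smaller than the chromatin-bound one (2.45 and 1.81). U1-70K had an mRNA ratio of 1.20 (authors' q = 0.153). In the authors' deposited table U2AF65A was at 93.6 FPKM in the mutant and 77.2 FPKM in Col-0 (ratio 1.21, q = 0.120), and SR45a at 26.5 FPKM in the mutant and 22.7 FPKM in Col-0 (ratio 1.17, q = 0.285). LSM5, the gene with the lowest chromatin-bound change, was there at 70.7 FPKM in the mutant and 56.7 FPKM in Col-0 (ratio 1.25, q = 0.321). Whether a gene's change differed between the kinds of RNA was not tested, because the mRNA table has 1 value per genotype. By sign alone, 18 of the 31 had higher mutant values in chromatin-bound RNA and in mRNA, 2 had lower values in both, 9 were higher in chromatin-bound RNA and lower in mRNA, and 2 were the reverse. As shares these are 58.1%, 6.45%, 29.0% and 6.45%, beside 39.3%, 17.8%, 31.3% and 11.5% of 18512 genes. The tally depends on the scaling: with rescaled chromatin-bound changes it was 14, 7, 4 and 6 of the 31, beside 29.7%, 28.7%, 20.4% and 21.2% of the 18512 genes. Across the 31 genes the chromatin-bound log2 change and the mRNA log2 ratio had Pearson's r = 0.38 and Spearman's rho = 0.42, beside 0.27 and 0.27 over 18512 genes, as a description of genes that share their libraries.

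**Figure D4:**
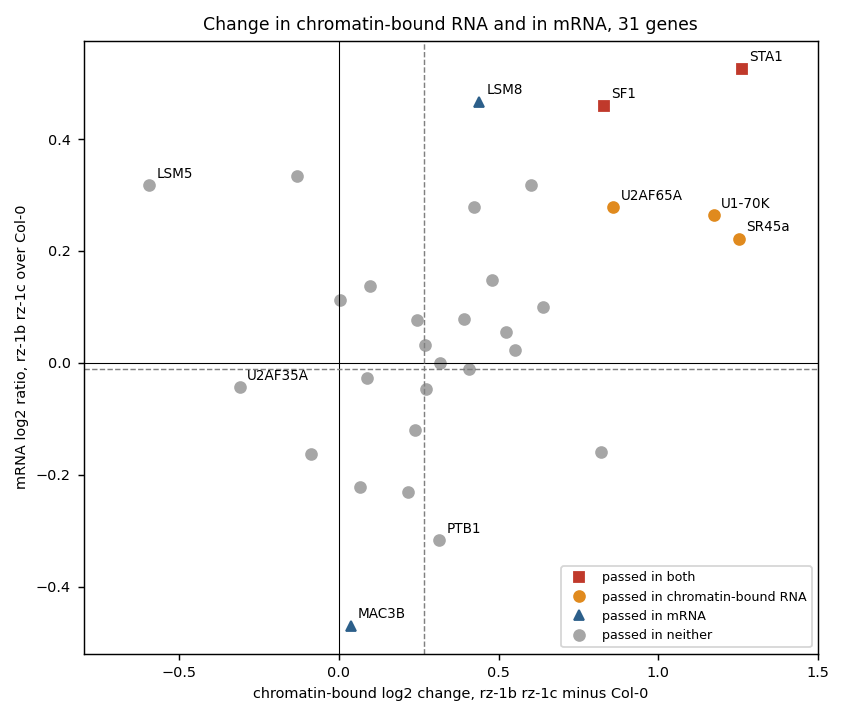
Chromatin-bound log2 change (x axis) and mRNA log2 ratio (y axis), rz-1b rz-1c relative to Col-0, for the 31 genes, with dashed lines at the medians of all genes. STA1 and SF1 lie at upper right and passed in both, U1-70K, SR45a and U2AF65A passed in chromatin-bound RNA, and LSM8 and MAC3B in mRNA.

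Within each kind of RNA the order of the genes was also different. FPKM is scaled per length, so levels can be ordered within a column, and a percentile here is a gene's place among the genes listed above 0 in that column. PRP8 was at the 96.3rd and 97.1st percentiles of the mutant chromatin-bound columns and the 96.2nd and 96.0th of the Col-0 columns, but at the 83.4th percentile in mutant mRNA and the 82.1st in Col-0 mRNA. STA1 stood at 98.5 and 97.7 in the mutant chromatin-bound columns and 92.1 and 93.2 in the Col-0 columns, against 79.1 in mutant mRNA and 70.3 in Col-0 mRNA. The LSm genes had the opposite order. LSM5 stood at 45.4 and 56.6 in the mutant chromatin-bound columns and 67.9 and 65.2 in the Col-0 columns, and at 91.3 in mutant mRNA and 88.8 in Col-0 mRNA. U1A was at 51.4 and 51.6 in the mutant chromatin-bound columns and 56.3 and 38.2 in the Col-0 columns, and at 83.3 in mutant mRNA and 84.2 in Col-0 mRNA. Over the 31 genes the log2 levels in the 2 kinds of RNA had Spearman's rho = 0.06 in the mutant and 0.22 in Col-0, beside 0.60 and 0.66 over 18512 genes. In mRNA the 31 span a narrower range, from the 59.7th to the 93.6th percentile in the mutant and the 63.1st to the 92.3rd in Col-0. Their range was wider in chromatin-bound RNA. There it ran from 45.4 to 99.6 and from 46.6 to 99.0 in the mutant columns. In the Col-0 columns it ran from 39.6 to 97.8 and from 29.1 to 98.6. A narrow range by itself can lower a correlation, and its part here was not tested. By mean chromatin-bound level the top genes of the mutant were U2AF65A, STA1 and U1-70K, whereas in Col-0 they were U2AF65A, PRP8 and AT1G60900. The summed FPKM of the 31 was 1110 and 993 in the mutant columns and 738 and 694 in the Col-0 columns.

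A share within a set of related genes does not depend on how a column is scaled, so it was computed per column. With 2 columns per genotype an exact two-sided permutation test cannot go below p = 0.333, and the shares are a description. U2AF35A made up 32.2% and 46.3% of the U2AF35 sum in the mutant and 50.7% and 48.6% in Col-0, a difference of -10.4 percentage points, and of -3.38 points without mutant replicate 1. Its mRNA share was 49.1% in both genotypes in the authors' deposited values. U2AF65A made up 71.4% and 68.6% of its sum with AT1G60900 in the mutant and 64.3% and 66.4% in Col-0, without overlap, and its mRNA share was 73.1% in the mutant and 69.5% in Col-0. MAC3A held 36.2% and 37.4% of the MAC3 sum in the mutant and 34.8% and 36.8% in Col-0, whereas in mRNA it held 39.5% in the mutant and 30.0% in Col-0. Of the PTB sum, PTB3 held 49.1% and 47.2% in the mutant and 45.1% and 46.1% in Col-0, and PTB1 held 18.8% and 18.1% in the mutant and 21.2% and 19.0% in Col-0. The groups did not overlap for either, and the PTB1 share was also lower in mutant mRNA, at 17.1% against 20.8% in Col-0. PTB2 held 32.2% and 34.7% in the mutant and 33.6% and 34.9% in Col-0, which overlap.

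**Figure D5:**
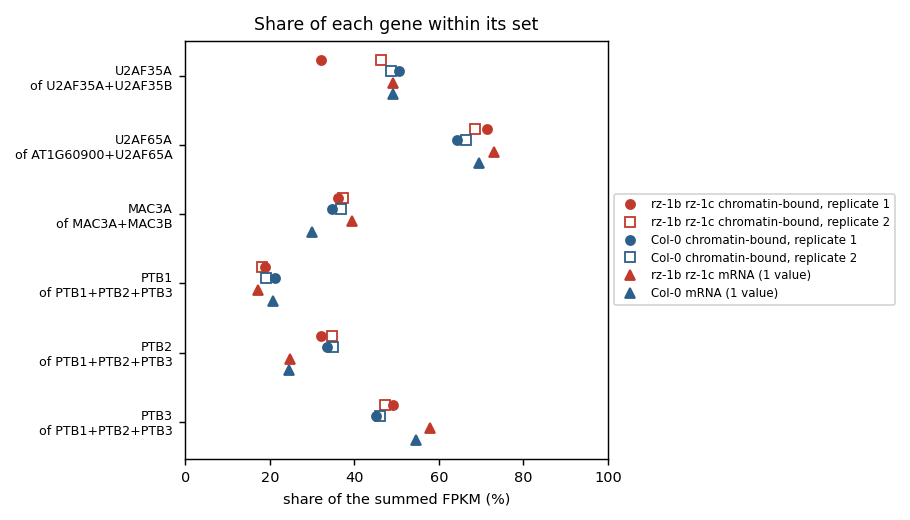
Share of each named gene in the summed FPKM of its set, in percent, for each chromatin-bound column (circles and squares) and for the 1 mRNA value per genotype (triangles), rz-1b rz-1c above Col-0. The U2AF35A point of mutant replicate 1 (32.2%) stands apart, and the MAC3A mRNA shares (39.5% in rz-1b rz-1c and 30.0% in Col-0) are farther apart than its chromatin-bound shares.

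A wider list of 90 other spliceosome genes, set by identifier with earlier results of these data known, placed these values among the rest of the pathway. Of 88 that passed the filter on low values, 9 rose (10.2%), 0 fell and 79 did not pass in chromatin-bound RNA. Their median log2 change was 0.24. Of all genes tested 13.2% rose. An unadjusted limma p under 0.05 was found for 21 of the 88, again without a share of all genes to set beside it. After median-of-ratios scaling 4 were higher (4.55%) and 1, YLS8, was lower (1.14%), beside 6.68% and 7.77% of all genes tested. Among called genes that reached 5 FPKM in 1 genotype, the 3 largest rises were in AT1G60200, AT1G20920 and AT2G42270. AT1G60200 was at 80.9 and 51.2 FPKM in the mutant and 23.0 and 29.2 FPKM in Col-0 (log2 change 1.28, SE 0.25, limma adjusted p = 0.0176). AT1G20920, known as RCF1 for its role in cold-responsive gene expression, was at 90.2 and 63.3 FPKM in the mutant and 37.5 and 32.3 FPKM in Col-0 (log2 change 1.10, SE 0.21, limma adjusted p = 0.0175). AT2G42270 was at 81.9 and 65.7 FPKM in the mutant and 36.5 and 37.1 FPKM in Col-0 (log2 change 0.98, SE 0.18, limma adjusted p = 0.0142). No group overlapped in these 3, and none of the 3 still passed once a mutant replicate, 1 or 2, was removed. Without the filter on low values AT1G60200 and AT1G20920 did not pass either (limma adjusted p = 0.0609 and 0.0550). Their rescaled log2 changes were 1.00 for AT1G60200, 0.82 for AT1G20920 and 0.70 for AT2G42270, and all 3 passed (limma adjusted p = 0.0459, 0.0300 and 0.0360). In mRNA 12 of 89 list genes with a q under 1 were higher in the mutant (13.5%) and 3 were lower (3.37%) by the authors' q, beside 16.9% and 17.7% of all genes with a q under 1. Among genes that reached 5 FPKM in 1 genotype, the authors' deposited table has the largest rises in AT5G20160, at 130 FPKM in the mutant and 74.3 FPKM in Col-0, AT1G54380, at 10.3 FPKM in the mutant and 6.09 FPKM in Col-0, and AT4G12600, at 151 FPKM in the mutant and 94.4 FPKM in Col-0 (q = 0.000329 for each). The 3 falls in the same table were AT1G13350, at 10.5 FPKM in the mutant and 15.6 FPKM in Col-0 (q = 0.000894), EMB2816, which is LSM7 (AT2G03870), at 42.0 FPKM in the mutant and 58.6 FPKM in Col-0 (q = 0.0124), and AT1G09230, the U12-type spliceosome gene U11/U12-65K, at 8.74 FPKM in the mutant and 11.7 FPKM in Col-0 (q = 0.0491).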

How the data were processed

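Chromatin-bound expression was deposited by the authors as FPKM, 1 table per genotype with 2 replicate columns. No source used here says how the 2 libraries of a replicate number were combined. The authors also deposited mRNA values, read as FPKM though the file does not write the unit, 1 per genotype, with q-values, which are adjusted p-values. The submitters' processing notes name TAIR10 as build and, without roles or order, Cuffdiff 2.2.1, Cufflinks, TopHat2 2.1.1, StringTie 1.3.4d and HISAT2 2.0.5. Each column is scaled to its own total and the genotypes stand in separate tables, which bears on every level set across genotypes. A copy of mutant replicate 2 was the 1 column not used.

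Log2(FPKM + 1) was fitted with limma 3.58.1 in R 4.3.3 (intensity trend, Benjamini-Hochberg adjustment, threshold 0.05) for the 19694 genes whose mean reached 1 FPKM. This scale understates changes of low genes. The fit was tested on simulated data. Relative depth is the most frequent ratio, within a window of 0.002 on the natural log scale, of values under 1 FPKM. It was chained through the column pairs with the largest share at that ratio, since the direct ratio of mutant replicate 1 to Col-0 replicate 2 was 1.40. mRNA log2 ratios were recomputed from the authors' values. Gene names are those of RefSeq's TAIR10.1 gene table, which matched 32835 of 33602 identifiers and whose coordinates are not printed. It holds no product text, so no identifier of the wider list was dropped on it. A planned search of promoter sequences was not run. All 31 genes are named. From the wider list, the 3 largest called rises and falls in each kind of RNA whose level reached 5 FPKM in 1 genotype are named. MAC5A is added as the neighbour of SR45a, and YLS8 as the list gene called lower after rescaling. The genes and lists were chosen with earlier results of these data known.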

Additional observations from a re-analysis of the deposited data

How the results depend on the processing

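STA1, SR45a and U1-70K stayed called under every alternative tried except those without a mutant replicate, with limma adjusted p up to 0.0704, 0.0720 and 0.0882. The adjusted p ran up to 0.202 for SF1 and 0.223 for U2AF65A. Without the low-value filter 3 of the 31 were higher, and 1418 of all genes were higher and 513 lower. Median-of-ratios scaling gave 3 higher and 1 lower of the 31 (all genes 1315 and 1531), and quantile normalization 3 and 1 (1445 and 1541). Deviations of same-numbered columns from their genotype means were almost uncorrelated (r = 0.014 over 19694 genes). The labels do not say whether same-numbered replicates were handled together. With a replicate block 8 of the 31 were higher, adding AT4G03120, PRMT5 and GFA1, as were 3469 of all genes, with 1051 lower. At a mean of at least 5 FPKM 7 of the 31 were higher, adding PRMT5 and GFA1. Of the 13946 genes then tested, 2124 were higher and 687 lower. Leaving out 1 replicate at a time gave 0 to 8 of the 31 higher, and 113 to 4108 higher and 114 to 880 lower of all genes. At 1.5-fold in mRNA, 0 of the 31 were higher and 0 lower by the authors' q, and 2521 of all genes were higher and 2759 lower.

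None of the genes whose sign turned was called as deposited. Median-of-ratios scaling turned the log2 changes of U1A (-0.0057), AT4G02840 (-0.16), LSM4 (-0.20), PRP8 (-0.036), PRL1 (-0.27), MAC3A (-0.17), MAC3B (-0.24), CBP20 (-0.051) and SR45 (-0.0012). Quantile normalization turned U1A (-0.036), AT4G02840 (-0.17), LSM4 (-0.17), PRL1 (-0.19), MAC3A (-0.091) and MAC3B (-0.14). With 1 replicate left out the log2 changes ran between -0.18 and 0.66 for U1A, -0.67 and 0.053 for U2AF35A, -0.066 and 0.24 for AT4G02840, -0.45 and 0.19 for AT2G18740, -0.0073 and 0.88 for LSM8, -0.27 and 0.10 for CDC5, -0.083 and 0.090 for PRL1, -0.028 and 0.22 for MAC3A, and -0.15 and 0.23 for MAC3B. The cause was not tested. With 2 columns per genotype and unknown total counts, small changes are not detectable, and a lone column is assumed to vary like the other genotype's.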
